A study of Danio rerio with 9 samples.

Results

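Interferon-stimulated genes and cytosolic RNA sensors were examined in thyroid tumors of transgenic zebrafish, as 10 genes taken from the count table by symbol: the RNA sensor genes ifih1 and dhx58, the transcription factor gene irf7, and the effector genes isg15, rsad2, mxa, mxb, mxc, mxd and mxe. All 10 were among the 27158 genes of the table, and 9 of them (all but mxb) had enough reads to be among the 18453 genes tested. RNA of tumors from 4 samples labelled CCDC6-RET (tumors 2, 3, 5 and 6) was compared with that of 5 labelled BRAF(V600E) (tumors 1, 2, 3, 6 and 7), to ask how tumors driven by these oncogenes differ. Both transgenes were driven in thyroid cells by the zebrafish thyroglobulin promoter, the tumors were harvested once visible, and no sample was of normal thyroid. The CCDC6-RET transgene, a human fusion of a receptor tyrosine kinase with CCDC6, was put into fish that carried a red thyroid reporter, and the BRAF(V600E) transgenic fish had been made for an earlier study. The sample labels of both groups hold the word adult, and the sources used here give no exact age at collection. They name no p53 status of the sequenced BRAF(V600E) tumors, although the study's cohort of that model in which tumor onset was timed had a p53 mutation. The line, the age, the dissection and the sequencing run cannot be told apart from the oncogene. The labels do not say that the libraries of a group are of different fish. The p-values therefore cover only the spread among the libraries, which may be technical.

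In vertebrate cells, viral or misplaced double-stranded RNA is bound by helicases of the RIG-I family, which signal through the mitochondrial adaptor MAVS to kinases that activate interferon regulatory factors. The interferons that are made act on receptors at the surface of the same and neighboring cells, and JAK kinases and STAT factors then turn on a large set of interferon-stimulated genes, to which sensors and irf7 themselves belong. The same genes can also be high because more white blood cells are present in a tissue.

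The libraries held 8662544 to 13596477 counts, and 20691 to 21407 genes had a count in CCDC6-RET libraries against 23453 to 23916 in BRAF(V600E) libraries. The groups differed over most of the table. Of the tested genes, 38.2% were lower and 33.9% higher in CCDC6-RET tumors at an adjusted p under 0.05 (edgeR's quasi-likelihood test with Benjamini-Hochberg adjustment over all tested genes). In 35.5% of the tested genes every CCDC6-RET library was below every BRAF(V600E) library. As a check of the labelled tissue, 10 of 13 tested thyroid genes rose and 1 fell in CCDC6-RET relative to BRAF(V600E) tumors (median log2 fold change 4.10). The gene tg, which encodes thyroglobulin, was abundant in both. It had 19300 ± 7690 CPM (counts per 1000000 counts of a library after scaling; SD, n = 4) in CCDC6-RET and 9880 ± 7530 CPM (SD, n = 5) in BRAF(V600E) tumors, which overlapped, and it did not pass (log2 fold change 0.96, adjusted p = 0.141). By contrast pax2a of the same list had 1350 ± 501 CPM (SD, n = 4) in CCDC6-RET and 18.5 ± 10.6 CPM (SD, n = 5) in BRAF(V600E) tumors. A high level in both groups was thus seen for tg and not for pax2a. Muscle, skin, blood and immune genes were lower in the CCDC6-RET libraries, with values given beside the results below. In RNA of whole tumors, fewer cells of a type and less RNA per cell cannot be told apart.

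Of the 9 tested genes, 8 fell in CCDC6-RET relative to BRAF(V600E) tumors, none rose, and mxe did not pass the test. This count stands beside 38.2% of all tested genes called lower, and it is a description of genes chosen with earlier results known. The median log2 fold change of the 9 was -1.41, and that of all tested genes was -0.09. The sizes ran from a 1.73-fold lower level of isg15 to a 76.4-fold lower level of mxd. In 5 genes (mxc, mxd, rsad2, ifih1 and irf7) no CCDC6-RET library reached the lowest BRAF(V600E) library, as in 35.5% of all tested genes. In mxd only 1 of the 4 CCDC6-RET libraries, in mxc 2 and in rsad2 3 held 10 counts or more, so these genes passed the filter on low counts through the BRAF(V600E) tumors and the count over tested genes supports nothing by itself.

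**Figure D1:**
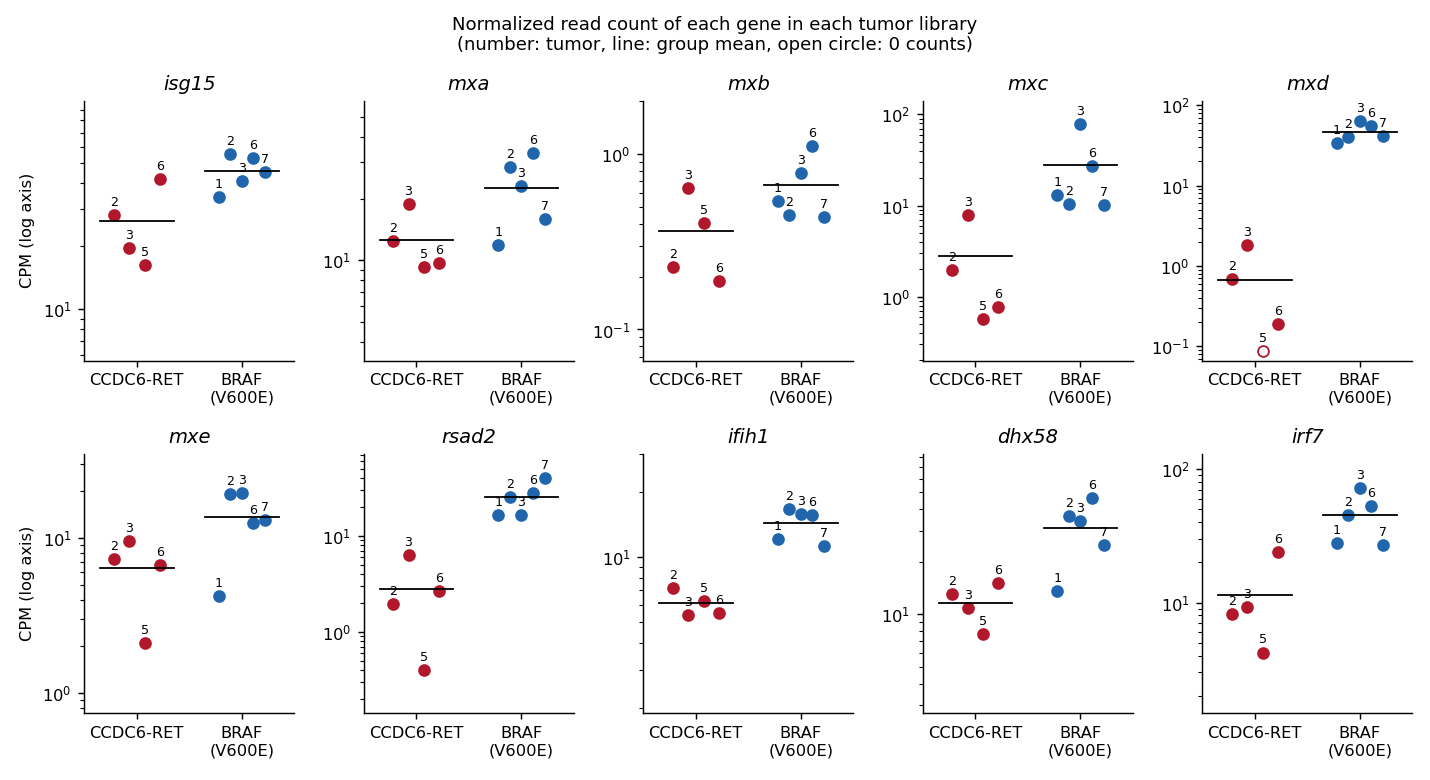
CPM of each of the 10 genes in the 4 CCDC6-RET (red) and 5 BRAF(V600E) (blue) libraries, on log axes that differ between panels. The numbers are tumor numbers, the lines are group means, and the open circle is mxd in CCDC6-RET tumor 5, which had 0 counts. The groups are apart for mxc, mxd, rsad2, ifih1 and irf7 and overlap for the other genes.

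The sensor gene ifih1 encodes MDA5, which binds long double-stranded RNA (chromosome 9, 51616720 to 51685865, GRCz10). Its level was 7.17, 5.39, 6.25 and 5.52 CPM in CCDC6-RET tumors 2, 3, 5 and 6. BRAF(V600E) tumors 1, 2, 3, 6 and 7 had 12.1, 16.7, 15.8, 15.7 and 11.2 CPM. The groups did not overlap, and relative to the mean the spread within each was the narrowest of the 9 tested genes, with group means of 6.09 ± 0.818 (SD, n = 4) and 14.3 ± 2.48 CPM (SD, n = 5). The log2 fold change was -1.23 (SE 0.19, adjusted p = 0.00028), a 2.34-fold lower level. All 16 alternative fits kept this call, with log2 fold changes between -1.77 and -1.17.

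The other sensor gene, dhx58, encodes LGP2, a relative of MDA5 that lacks the signaling domains of that family and modulates its activity (chromosome 3, 17537381 to 17562065). Its level was 13, 10.9, 7.72 and 15.1 CPM in CCDC6-RET tumors 2, 3, 5 and 6, whereas BRAF(V600E) tumors 1, 2, 3, 6 and 7 had 13.6, 36.5, 34.1, 46.4 and 25.1 CPM. The groups overlapped through BRAF(V600E) tumor 1, which lay below CCDC6-RET tumor 6 while the other BRAF(V600E) tumors lay above every CCDC6-RET tumor. The log2 fold change was -1.41 (SE 0.35, adjusted p = 0.00442), and it passed in all 16 alternatives. Within a library the ratio of ifih1 to dhx58 differed little between the groups, with a log2 difference of 0.12 (SE 0.33).

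The transcription factor gene irf7 encodes the regulatory factor that amplifies type I interferon production in mammals (chromosome 25, 25451711 to 25455877). Its level was 8.15, 9.25, 4.22 and 24 CPM in CCDC6-RET tumors 2, 3, 5 and 6, whereas BRAF(V600E) tumors 1, 2, 3, 6 and 7 had 28.1, 45.2, 72.5, 53 and 26.8 CPM. CCDC6-RET tumor 6 stood close to the lowest BRAF(V600E) tumors 7 and 1, without reaching them. CCDC6-RET tumors differed by a log2 fold change of -1.99 (SE 0.51, adjusted p = 0.00568). Without CCDC6-RET tumor 6 it was -2.63, and under scaling to ribosomal protein genes it was -2.58.

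Among the effectors, isg15 encodes a ubiquitin-like protein that is attached to other proteins and is also secreted (chromosome 5, 19608232 to 19609484). Its level was 28.1, 19.5, 16.2 and 42 CPM in CCDC6-RET tumors 2, 3, 5 and 6, whereas BRAF(V600E) tumors 1, 2, 3, 6 and 7 had 34.4, 55.2, 41, 53 and 45.4 CPM. CCDC6-RET tumor 6 lay above BRAF(V600E) tumors 1 and 3, and the other 3 CCDC6-RET tumors lay below every BRAF(V600E) tumor. The log2 fold change was -0.79 (SE 0.28, adjusted p = 0.0264), the smallest among the 9 tested genes. The call ended when CCDC6-RET tumor 2 (adjusted p = 0.0522), 3 (0.0746) or 5 (0.0604) or BRAF(V600E) tumor 2 (0.0555) or 6 (0.053) was left out, and in the 6 libraries with shared numbers (0.0602), within a range of 0.00267 to 0.0746 over the 16 alternatives.

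The gene rsad2 encodes viperin, a radical SAM enzyme that in mammals makes an altered nucleotide that stops viral RNA synthesis (chromosome 17, 35409505 to 35413376). Its level was 1.96, 6.29, 0.406 and 2.67 CPM in CCDC6-RET tumors 2, 3, 5 and 6, whereas BRAF(V600E) tumors 1, 2, 3, 6 and 7 had 16.6, 25.3, 16.3, 28 and 39.9 CPM. All BRAF(V600E) libraries were above all CCDC6-RET libraries, of which tumor 3 was the highest and tumor 5 the lowest. This was a log2 fold change of -3.20 (SE 0.62, adjusted p = 0.00119), a 9.18-fold lower level, and it was -3.90 without CCDC6-RET tumor 3. The next gene on the chromosome, cmpk2, lies 1528 bases away and encodes a nucleotide kinase that is induced with viperin in mammals. It was named here for its position after its values were seen, and it fell by 1.77 on the log2 scale (SE 0.34).

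The Mx genes encode dynamin-like GTPases that assemble on viral components, and they differed most from each other. The mxa gene (chromosome 1, 6878883 to 6898529) had 12.4, 18.8, 9.26 and 9.71 CPM in CCDC6-RET tumors 2, 3, 5 and 6, whereas BRAF(V600E) tumors 1, 2, 3, 6 and 7 had 11.8, 28.6, 23.1, 33.3 and 15.9 CPM. BRAF(V600E) tumors 1 and 7 lay within the range of the CCDC6-RET tumors. Between the groups the log2 fold change was -0.85 (SE 0.34, adjusted p = 0.0445). The call ended with the replicate block (-1.09, adjusted p = 0.052) and when CCDC6-RET tumor 2 (0.0953), 5 (0.107) or 6 (0.117) or BRAF(V600E) tumor 2 (0.0904), 3 (0.0711) or 6 (0.0999) was left out, within a range of 0.00329 to 0.117.

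Its partner mxb (chromosome 1, 6890918 to 6920301) overlaps mxa over 7612 bases, so reads of the shared stretch may have been counted for either gene or for neither. It had 3, 5, 5 and 2 counts in CCDC6-RET tumors 2, 3, 5 and 6, whereas BRAF(V600E) tumors 1, 2, 3, 6 and 7 had 6, 5, 9, 16 and 6 counts. The groups overlapped, and the gene did not pass the filter on low counts. A two-sided exact permutation test of its CPM gave p = 0.111, and with no filter the log2 fold change was -0.91 (SE 0.52, adjusted p = 0.162). A difference was not detectable at this depth.

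Of the 5 Mx genes among the 10, the lowest in CCDC6-RET relative to BRAF(V600E) tumors was mxd (chromosome 25, 19620553 to 19633304). It had 9, 14, 0 and 2 counts in CCDC6-RET tumors 2, 3, 5 and 6, which were 0.68, 1.8, 0 and 0.19 CPM. In BRAF(V600E) tumors 1, 2, 3, 6 and 7 its level was 33.5, 40.8, 63.3, 55.9 and 41.1 CPM. The BRAF(V600E) tumors lay within a narrow range and the highest CCDC6-RET tumor was far below it. The 0 counts in CCDC6-RET tumor 5 allow a level of up to 0.244 CPM (3 counts in that library, counting error only). The log2 fold change was -6.25 (SE 0.71, adjusted p = 4.43e-05), on 25 counts in all CCDC6-RET against 2916 in all BRAF(V600E) libraries. It was -7.23 without CCDC6-RET tumor 3, -6.85 under scaling to ribosomal protein genes and -7.13 with limma-voom, and the call held in all 16 alternatives.

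The genes mxc (chromosome 9, 32994776 to 33007893) and mxe (33012059 to 33029170) lie 4165 bases apart. The level of mxc was 1.96, 7.96, 0.569 and 0.762 CPM in CCDC6-RET tumors 2, 3, 5 and 6, whereas BRAF(V600E) tumors 1, 2, 3, 6 and 7 had 13.1, 10.5, 78.4, 27.1 and 10.2 CPM. The groups did not overlap, but BRAF(V600E) tumor 3 and CCDC6-RET tumor 3 stood high in their groups. The group difference was -3.37 on the log2 scale (SE 0.96, adjusted p = 0.0102), a 10.3-fold lower level, and it was -4.62 without CCDC6-RET tumor 3, -4.04 under scaling to ribosomal protein genes and -2.50 when BRAF(V600E) tumor 3 was left out. The neighbor mxe had 7.25, 9.5, 2.11 and 6.66 CPM in CCDC6-RET tumors 2, 3, 5 and 6, whereas BRAF(V600E) tumors 1, 2, 3, 6 and 7 had 4.22, 19.2, 19.4, 12.4 and 13.1 CPM. BRAF(V600E) tumor 1 lay below 3 of the CCDC6-RET tumors and the other BRAF(V600E) tumors lay above all of them. The log2 fold change of mxe was -1.10 (SE 0.50) and did not pass (adjusted p = 0.0713). It passed without BRAF(V600E) tumor 1 (-1.35, adjusted p = 0.0183), under scaling to ribosomal protein genes (-1.69, adjusted p = 0.0116), with DESeq2 (0.0318), and in the 6 libraries with shared numbers with the replicate block (0.0227) or without it (0.013), within a range of 0.0116 to 0.14.

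**Figure D2:**
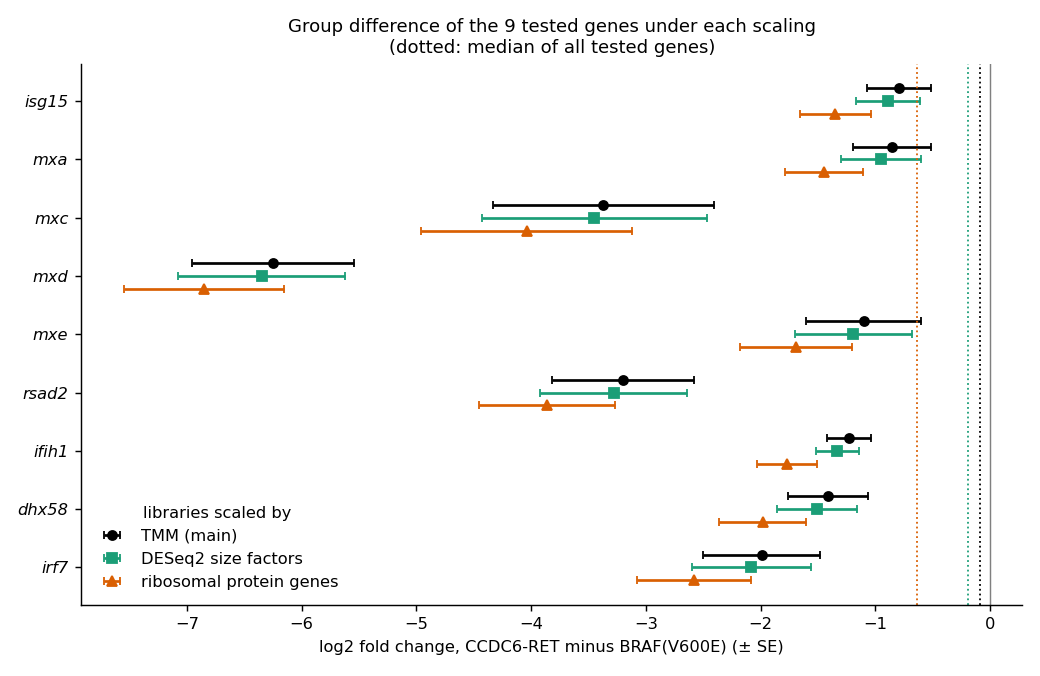
Log2 fold change of CCDC6-RET relative to BRAF(V600E) tumors with its SE for the 9 tested genes, with libraries scaled by TMM, by DESeq2 size factors or by ribosomal protein genes. Dotted lines are the median of all tested genes under each scaling, at -0.09, -0.19 and -0.64. All 9 estimates are below 0 under each scaling, with mxd at the far left.

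The scale of the libraries bears on the smaller of these differences. Scaling to ribosomal protein genes moved the median log2 fold change of all tested genes from -0.09 to -0.64, and of 11979 genes then called 3071 were higher and 8908 lower, in place of 6255 higher and 7043 lower of 13298. Counts of pairs of genes within a library do not depend on the scale. In this comparison, chosen after the values were seen, the log2 ratios of all 45 pairs of the 10 genes, with 0.5 added to each count, were set side by side as a description. In 15 pairs the ratios of the groups did not overlap. All 9 pairs with mxd were among them, which restates the low counts of mxd in CCDC6-RET tumors. The other 6 were rsad2 with isg15, mxa, mxb and mxe, isg15 with irf7, and mxb with mxc. The share over pairs of all tested genes was not computed, so it is not known whether 15 of 45 is many. Of the 18453 tested genes taken singly, 6557 lay below and 5393 above without overlap in CCDC6-RET libraries.

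Relative to mxa in the same library, mxd was lower in CCDC6-RET than in BRAF(V600E) tumors by a log2 difference of 6.28 (SE 1.01). This size rests in part on the 0.5 added to the 0 counts in CCDC6-RET tumor 5, and the difference, CCDC6-RET minus BRAF(V600E), was -5.93 with 1 count added and -5.38 without that tumor. The log2 ratio of mxd to mxa was -4.11, -3.34, -7.84 and -5.36 in CCDC6-RET tumors 2, 3, 5 and 6, and 1.5, 0.51, 1.45, 0.75 and 1.37 in BRAF(V600E) tumors 1, 2, 3, 6 and 7. Counts of mxd thus exceeded those of mxa in every BRAF(V600E) library and in no CCDC6-RET library. The log2 ratio of mxc to mxa differed by -2.75 (SE 0.81), and its values overlapped between the groups. The ratio of mxe to mxa differed by -0.30 (SE 0.44), and the difference turned to 0.04 without CCDC6-RET tumor 5. The ratio of mxa to mxb, which share sequence positions, differed by 0.02 (SE 0.37). The Mx genes can be similar in sequence and how reads with several matches were handled is not given in the sources used here, which leaves the split of reads among them uncertain.

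**Figure D3:**
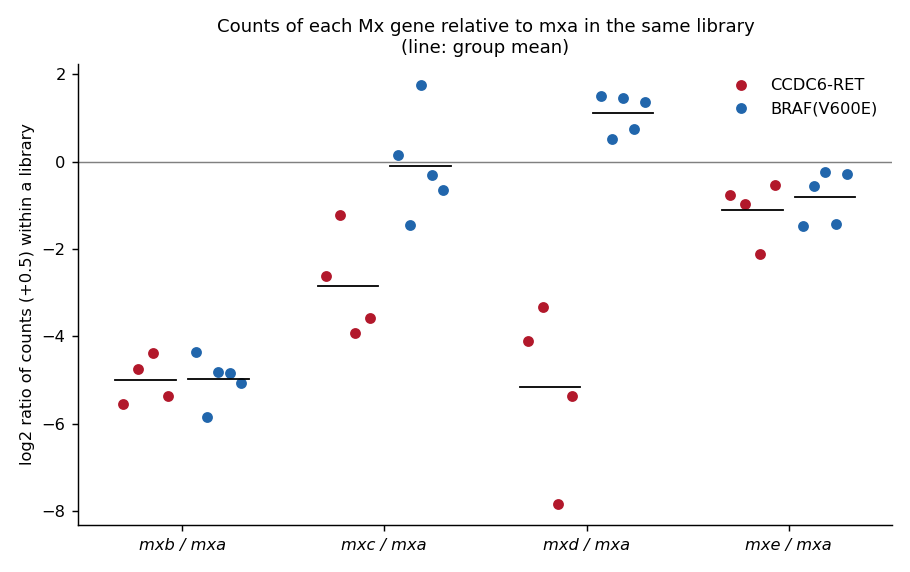
Log2 ratio of the counts of mxb, mxc, mxd and mxe to those of mxa in the same library, with 0.5 added to each count, in the 4 CCDC6-RET (red) and 5 BRAF(V600E) (blue) libraries. Lines are group means. The ratio of mxd lies between 0.51 and 1.5 in BRAF(V600E) libraries and between -7.84 and -3.34 in CCDC6-RET libraries. Those of mxb, mxc and mxe overlap between the groups.

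Within a group the genes varied by library. CCDC6-RET tumor 5 was the lowest of its group for 8 of the 10 genes, and CCDC6-RET tumor 3 was the highest for 6 and tumor 6 for 3. Over the 9 tested genes the mean deviation from the group's log2 level was -0.99 in CCDC6-RET tumor 5 and 0.70 in tumor 3, and 0.17 and 0.12 in tumors 2 and 6. BRAF(V600E) tumor 1 was below its group mean for all 9 genes (mean deviation -0.68), and BRAF(V600E) tumor 6 was above it for all 9 (0.34). The deviations of BRAF(V600E) tumors 2, 3 and 7 averaged 0.12, 0.42 and -0.20. The sensor gene ifih1 moved least, from -0.33 to 0.24.

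**Figure D4:**
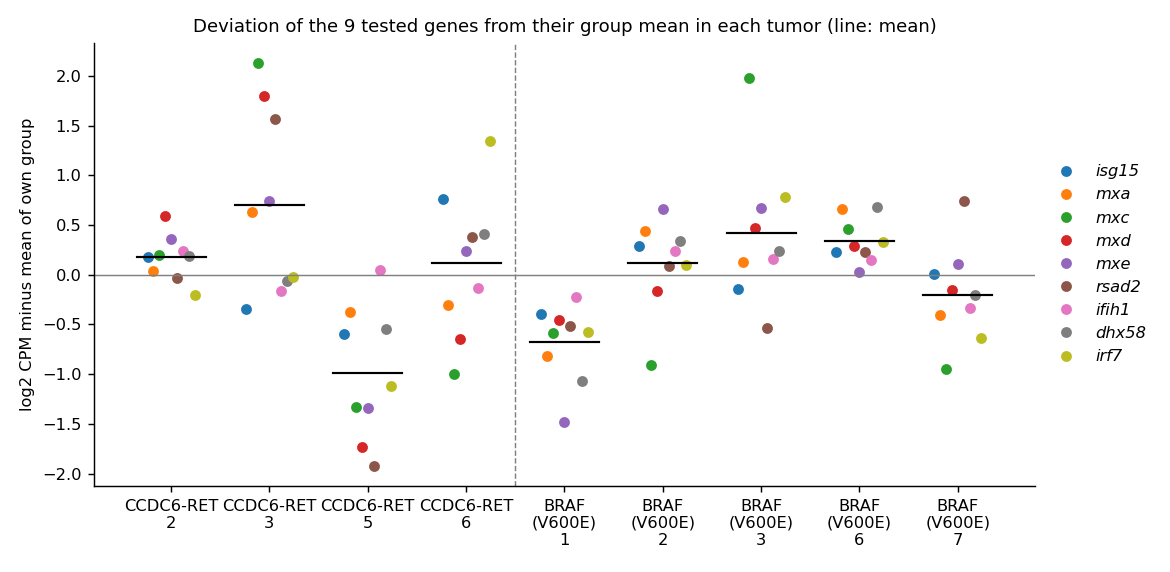
Log2 CPM of each of the 9 tested genes minus the mean of its own group, in each of the 9 tumors, with the mean over the genes as a line. CCDC6-RET tumor 5 (-0.99) and BRAF(V600E) tumor 1 (-0.68) have the lowest means, and CCDC6-RET tumor 3 (0.70) has the highest.

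The genes whose deviations across the 9 libraries were most like the mean of the tested genes were ttc39a (r = 0.976), junba (0.975), acap3b (0.965), fynb (0.958) and fam83fb (0.957). They were the top of a search over all tested genes with a mean of at least 5 counts per library. In CCDC6-RET tumors 2, 3, 5 and 6 fam83fb had 2, 2, 0 and 2 counts and ttc39a 13, 11, 5 and 11, so counting error weighs on their deviations there. These r describe 9 libraries that share their depth and cell content with both sides of the comparison. Against the mean of the others, the tested genes of the set ranged from 0.87 for mxe to 0.21 for ifih1. Between the groups ttc39a, acap3b, fynb and fam83fb fell (log2 fold changes of -3.81, -2.86, -1.93 and -6.38), and junba, which encodes a subunit of the AP-1 transcription factor, did not pass (0.25, SE 0.33), with a log2 fold change of -0.34 under scaling to ribosomal protein genes.

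The remainder of the pathway did not move as a block. Lists of its genes were chosen with earlier results of these data known, and their counts stand beside the 38.2% lower and 33.9% higher of all tested genes. Some listed genes passed the filter on low counts only through the group in which they were high, so these counts support nothing by themselves. Of 7 tested genes for interferons and their receptor chains, 2 fell, 2 rose and 3 did not pass (median log2 fold change 0.31). The receptor chain genes crfb12 and crfb17 fell, with log2 fold changes of -6.35 (SE 0.39) and -2.63 (SE 0.32), whereas crfb6 rose by 1.08 (SE 0.12) and crfb2 by 0.69 (SE 0.16). The gene crfb12 had 3, 1, 6 and 1 counts in CCDC6-RET tumors 2, 3, 5 and 6 and passed the filter through the BRAF(V600E) tumors. Its log2 fold change was -6.96 without CCDC6-RET tumor 5, and -7.18 and -7.14 in the 6 libraries with shared numbers with and without the replicate block. The call of crfb2 ended under scaling to ribosomal protein genes (0.11, adjusted p = 0.624) and with the replicate block (adjusted p = 0.0675). The chains crfb4 and crfb1 had log2 fold changes of 0.31 (SE 0.17) and 0.34 (SE 0.24) that did not pass and were both -0.24 under scaling to ribosomal protein genes.

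Few reads came from the interferons themselves, all of which were named after their values were seen. The type I interferon gene ifnphi1 of fish had 117 counts in all CCDC6-RET and 183 in all BRAF(V600E) libraries (log2 fold change -0.21, SE 0.28, adjusted p = 0.508). The type II interferon gene ifng1-1 had 0 counts in CCDC6-RET and 55 in BRAF(V600E) libraries, at least 13-fold lower against a floor of 3 counts over the CCDC6-RET libraries. Of the 55 counts 35 came from BRAF(V600E) tumor 3, and without it the bound was 5.82-fold. The type II gene ifng1-2 had 1 and 20 counts. The other type I genes did not pass the filter: ifnphi2 had 8 and 6 counts, ifnphi3 34 and 5, and ifnphi4 7 and 0. For ifnphi3 and ifnphi4 every CCDC6-RET library had more than every BRAF(V600E) library, as in 5393 of the 18453 tested genes. Both genes were near the floor, and a shared direction of the interferon genes was not tested.

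Among 10 other tested sensors of nucleic acids, 8 fell, dhx36 rose and tlr3 did not pass, with a median log2 fold change of -2.49. The genes of RIG-I itself, tlr8a and zbp1 could not be matched by symbol and tlr7 matched several rows, so none of them was examined. The genes tlr9, tlr8b, mb21d1, tlr22 and tlr21 had 1, 7, 18, 22 and 25 counts in all CCDC6-RET libraries. They passed the filter on low counts through the BRAF(V600E) tumors, so the count over tested sensors supports nothing by itself. The gene eif2ak2 encodes PKR, the kinase that stops translation when it binds double-stranded RNA, and it fell by 2.42 (SE 0.27). The toll-like receptor genes tlr8b and tlr22 fell as well, with log2 fold changes of -3.90 (SE 0.38) and -3.26 (SE 0.51), the latter -3.87 without CCDC6-RET tumor 6. The DNA receptor gene tlr9 had 1 count in all CCDC6-RET and 143 in all BRAF(V600E) libraries, a ratio of 102 with a 95% counting interval of 17.9 to 4040. The RNA receptor gene tlr3 had 16 ± 5.9 CPM (SD, n = 4) and 16.5 ± 2.17 CPM (SD, n = 5), a log2 fold change of -0.04 (SE 0.24) that ran from -0.29 to 0.13 as each library was left out. Of the same step of the response, ifih1 and dhx58 fell and tlr3 did not pass, and the difference between these genes was not tested.

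No gene of the 11 tested adaptors and kinases fell, 4 rose and 7 did not pass (median 0.25). The adaptor gene myd88, used by most toll-like receptors, rose by 1.16 (SE 0.12), and ikbke, which encodes a kinase of interferon regulatory factors, rose by 0.68 (SE 0.14), a call that ended under scaling to ribosomal protein genes (0.09, adjusted p = 0.627). The adaptor gene ticam1 rose by 0.49 (SE 0.15) and the kinase gene tbk1 by 0.30 (SE 0.11), and both were below 0 under scaling to ribosomal protein genes (-0.08 and -0.27). The call of ticam1 ended with the replicate block (adjusted p = 0.192) and in the same 6 libraries unpaired (0.0946), and that of tbk1 ended in most of the alternatives. The adaptor gene mavs, whose product the RNA sensors signal through, was at -0.29 (SE 0.14, adjusted p = 0.0895), and trim25, which encodes a ubiquitin ligase, was at -0.25 (SE 0.14). Under scaling to ribosomal protein genes both fell (-0.87 and -0.85), as they did with the DESeq2 test (adjusted p = 0.0253 and 0.0471), mavs also under DESeq2 size factors (adjusted p = 0.0386) and without CCDC6-RET tumor 6 (adjusted p = 0.00726), and trim25 without CCDC6-RET tumor 3 (adjusted p = 0.0227).

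Of 11 other tested interferon regulatory factors, 5 fell, 4 rose and 2 did not pass (median -0.30). The gene irf3, the partner of irf7 downstream of the RNA sensors in mammals, fell by 2.10 (SE 0.27). The lymphocyte factor gene irf4b fell by 3.67 (SE 0.43). In the other direction irf2a rose by 1.60 (SE 0.16) and irf8, needed for macrophages in fish, by 2.71 (SE 0.38). The genes irf2 and irf5 did not pass, at -0.25 and -0.30. Both passed under scaling to ribosomal protein genes (-0.83 and -0.88) and with the DESeq2 test (adjusted p = 0.0394 and 0.028), and without CCDC6-RET tumor 6 (irf2, -0.39, adjusted p = 0.00735) or 5 (irf5, -0.41, adjusted p = 0.0467).

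In the 18 tested genes of JAK-STAT signaling and its inhibitors, 5 fell, 6 rose and 7 did not pass, with a median of -0.10. The level of stat1a, which encodes a STAT that carries the interferon signal, was 210 ± 23 CPM (SD, n = 4) in CCDC6-RET and 211 ± 27.5 CPM (SD, n = 5) in BRAF(V600E) tumors. This gave a log2 fold change of 0.00 (SE 0.13), and jak1 was at -0.04 (SE 0.11). Both fell under scaling to ribosomal protein genes (-0.57 and -0.61, near the -0.64 median of all genes). The genes stat3 and jak2a fell, with log2 fold changes of -1.86 (SE 0.34) and -1.83 (SE 0.33), and the phosphatase gene ptpn2a rose by 1.35 (SE 0.22). The inhibitor gene socs1b had 3 counts in all CCDC6-RET and 131 in all BRAF(V600E) libraries, a ratio of 31 with a 95% counting interval of 10.4 to 152.

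For the conjugation of ISG15, uba7, which encodes its activating enzyme in mammals, fell by 2.60 (SE 0.28). The ligase-like gene herc3, whose part in ISG15 conjugation was not examined, fell by 1.28 (SE 0.19). The gene usp18, which encodes the protease that removes ISG15, rose by 0.92 (SE 0.23). The rise of usp18 did not pass under scaling to ribosomal protein genes (0.32, adjusted p = 0.22) or with the replicate block (adjusted p = 0.056). The other ligase-like genes herc7 and HERC5 did not pass, at -1.45 (SE 0.78) and -0.67 (SE 0.59). In herc7 a single library decided the call: its level was 10.7 CPM in CCDC6-RET tumor 2 and 0.257, 0.812 and 1.81 CPM in tumors 3, 5 and 6, and without tumor 2 the log2 fold change was -3.25 (adjusted p = 0.000365). With limma-voom it was -2.55 (adjusted p = 0.0073).

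In a list of 51 other tested interferon-induced genes, 23 fell (45.1%), 10 rose (19.6%) and 18 did not pass, with a median of -0.51. The genes of this list thus went both ways, from -9.10 to 6.26. The antigen-processing genes abcb3l1, a transporter that reference names give as tap2a, and psmb9a, an immunoproteasome subunit, were low in CCDC6-RET tumors. The former had 2 counts in all CCDC6-RET and 1927 in all BRAF(V600E) libraries, a ratio of 684 with a 95% counting interval of 189 to 5650, and psmb9a fell by 4.49 (SE 0.27). The gene epsti1 fell by 3.81 (SE 0.29), and phf11, a PHD finger gene, rose by 3.42 (SE 0.17). The proteasome activator gene psme2 was at 0.04 (SE 0.21), with a log2 fold change of -0.07 under DESeq2 size factors and -0.49 under scaling to ribosomal protein genes, and znfx1, which encodes a helicase-like RNA sensor, was at -0.22 (SE 0.25) and fell under the latter scaling (-0.81, adjusted p = 0.0238).

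Of 8 tested genes for relatives of the Mx GTPases, 6 fell, opa1 rose and dnm1l did not pass, with a median of -1.46. The gene mxf, a further Mx gene, had 2 counts in all CCDC6-RET and 385 in all BRAF(V600E) libraries, a ratio of 137 with a 95% counting interval of 37.6 to 1130. The gene mxg, 3367 bases from mxd, had 0 and 15 counts, at least 3.55-fold lower against 3 counts over the CCDC6-RET libraries. The endocytic dynamin genes dnm2b and dnm2a fell, with log2 fold changes of -1.67 (SE 0.24) and -0.94 (SE 0.16), and the mitochondrial fusion gene opa1 rose by 2.60 (SE 0.13). The mitochondrial fission gene dnm1l was at -0.16 (SE 0.10) and fell with DESeq2 size factors (adjusted p = 0.0352), with the DESeq2 test (0.00656) and under scaling to ribosomal protein genes (-0.71, adjusted p = 0.0053).

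**Figure D5:**
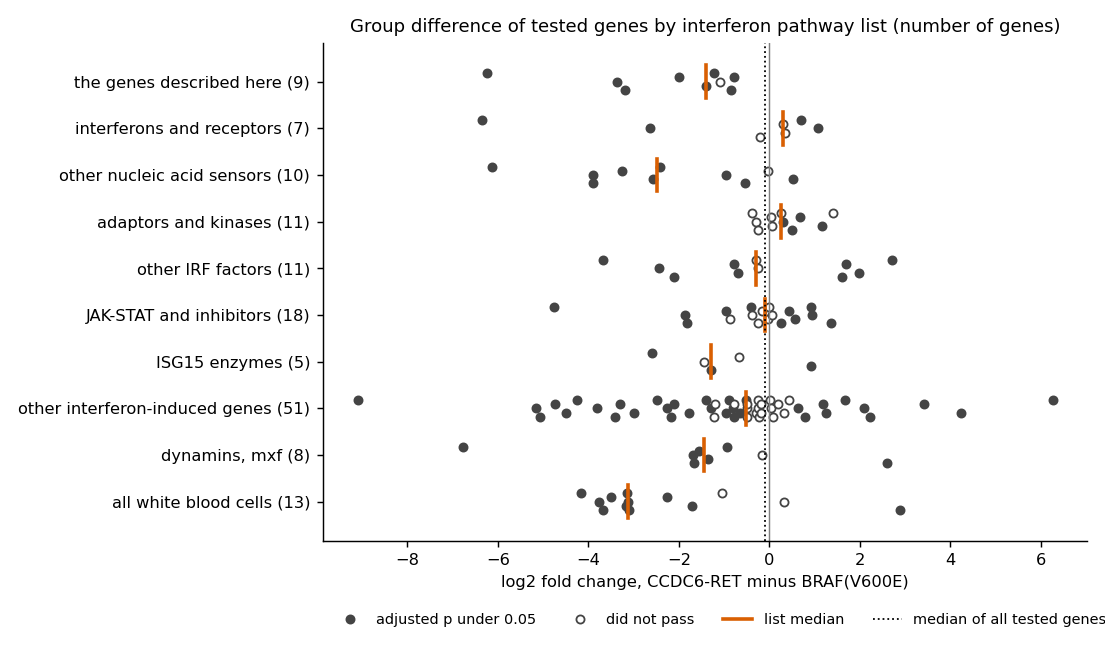
Log2 fold change of CCDC6-RET relative to BRAF(V600E) tumors for each tested gene of the interferon pathway lists and of the list of white blood cell genes, with the number of genes in brackets. Filled points passed at an adjusted p under 0.05, orange bars are list medians, and the dotted line is the median of all tested genes (-0.09). The adaptors and kinases have no filled point below 0, whereas most sensors and white blood cell genes lie below it.

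Genes of other cell types moved with the same groups. Counts of called genes in these lists stand beside the 38.2% lower and 33.9% higher of all tested genes. The 10 genes summed to 80.9, 90, 47.2 and 107 CPM in CCDC6-RET tumors 2, 3, 5 and 6. Their sum in BRAF(V600E) tumors 1, 2, 3, 6 and 7 was 168, 278, 365, 326 and 229 CPM. Of the 13 tested genes of all white blood cells 10 fell and 1 rose (median -3.12). Their summed level was 383 to 647 CPM in CCDC6-RET and 938 to 1070 CPM in BRAF(V600E) libraries. Most of the CCDC6-RET sums came from arpc1b (218 to 304 CPM), which did not pass, and wasa (76.6 to 153 CPM), which rose. The T and NK cell genes summed to 74.7 to 174 CPM against 857 to 1050 CPM, with ccr7 at 0 in all CCDC6-RET libraries. Most of the BRAF(V600E) sums came from gata3 (218 to 377 CPM) and ccr9a (263 to 342 CPM). The largest part of the CCDC6-RET sums came from zap70 (44.3 to 107 CPM), which rose. The B cell genes summed to 149 to 671 against 3630 to 5180 CPM. Nearly all of the B cell sum came from cd74a and cd74b, which other antigen-presenting cells also express, and the other 12 genes summed to 15.1 to 104 CPM against 94.6 to 118 CPM, which overlapped. The gene gata3 of the T and NK cell list had a log2 fold change of -4.66 (SE 0.70), or -5.83 without CCDC6-RET tumor 3. The antigen-presentation gene cd74a had one of -3.89 (SE 0.53), or -4.65 without that tumor.

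Myeloid genes were less uniform. Of 20 tested macrophage genes 11 fell and 2 rose (median -1.22), and their sums overlapped, at 628 to 1110 CPM for CCDC6-RET and 649 to 906 CPM for BRAF(V600E) libraries. Most of the CCDC6-RET sums came from the 2 genes that rose, si:ch211-212k18.7 and irf8. Without them the other 18 genes summed in CCDC6-RET tumors 2, 3, 5 and 6 to 97.3, 170, 52.1 and 205 CPM, below the 345 to 512 CPM of the BRAF(V600E) tumors. The 2 genes left out were the only ones of the list that rose. The lower sums of the rest thus follow in part from leaving them out and support nothing by themselves. Of 13 tested neutrophil genes 10 fell and 1 rose (median -4.10), with sums of 202 to 389 and 371 to 653 CPM. Nearly all of the CCDC6-RET sums came from nccrp1 (79.1 to 122 CPM), cyba (114 to 145 CPM) and mmp9 (1.79 to 124 CPM), which did not fall. The order of the CCDC6-RET sums therefore rests on these genes. CCDC6-RET tumor 5, in which 8 of the 10 interferon genes were lowest, also had the lowest sums of its group for macrophage, neutrophil and lymphocyte genes. The same held for red blood cell, muscle, skin, endothelial and fibroblast genes. The sum for genes of all white blood cells was 498 CPM there, against 383, 647 and 437 CPM in tumors 2, 3 and 6. It rested mostly on arpc1b (304 CPM) and wasa (117 CPM), which did not fall between the groups. Of the same list, ptprc (1.95 CPM), coro1a (3.98 CPM), lcp1, wasb, laptm5, rac2 and fermt3b were lowest in tumor 5. In the same tumor arpc1b and cxcr4b (28.2 CPM) were highest, and wasa, CD37, ptpn6 and itgb2 lay between. CCDC6-RET tumor 3 had the highest sums for genes of all white blood cells and for T and NK cell genes. Of its 174 CPM for T and NK cell genes gata3 gave 35.1 CPM, against 5.06 of 148 CPM in tumor 2. Tumor 6 had the highest sum for neutrophil genes (389 against 383 CPM in tumor 3). For macrophage and B cell genes tumor 3 was highest over the whole lists, and tumor 6 once the named pair of each list was left out (205 against 170 CPM and 104 against 99 CPM). In the other group, BRAF(V600E) tumor 1 had the lowest sum of the interferon genes, and its white blood cell genes (1040 CPM) lay within the range of its group. That sum rested in part on arpc1b (231 CPM) and cxcr4b (196 CPM). Single genes of the list went both ways in BRAF(V600E) tumor 1. There ptprc (111 CPM) was lowest of the group and coro1a (117 CPM) level with the lowest, whereas arpc1b, wasb, CD37 and ptpn6 were highest. The thyroid genes summed to 21500 CPM in that tumor and to 13500, 5380, 2520 and 7240 CPM in BRAF(V600E) tumors 2, 3, 6 and 7, so it was the highest of its group. Nearly all of these sums came from tg alone, at 21300 CPM in tumor 1 and 13400, 5260, 2440 and 7030 CPM in tumors 2, 3, 6 and 7. Across the 9 libraries, with group means removed, the mean deviation of the tested interferon genes was set beside that of each list. The r was 0.70 for all white blood cells, 0.74 for macrophage, 0.86 for neutrophil, 0.66 for T and NK cell and 0.63 for B cell genes. No r was computed for muscle, skin, red blood cell, endothelial or fibroblast genes, so these values do not set white blood cells apart. In the search above, 5 genes outside these lists had r of 0.957 to 0.976. Some neutrophil genes were near 0 in CCDC6-RET tumors 2, 3, 5 and 6, as lyz with 1, 0, 2 and 1 counts. The part of white blood cells in the group difference of the interferon genes was not tested.

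Surrounding tissue differed as well. Of 24 tested muscle genes 23 fell (median -7.60), of 22 skin genes 18 fell (median -5.98, with krt92 and cyt1 at 0 in all CCDC6-RET libraries), of 14 fibroblast genes 13 fell (median -2.86), and of 12 red blood cell genes all fell (median -4.42). Of 18 tested endothelial genes 8 fell, 1 rose and 9 did not pass (median -0.94). The 44.4% that fell were near the 38.2% of all tested genes called lower. The part of these tissues in the result was not tested either.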

How the data were processed

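Total RNA of visible thyroid tumors was sequenced as 9 paired-end TruSeq libraries. The authors aligned reads with STAR, of which the submitters' processing notes name version 2.3 and the study's methods another release, to the genome build GRCz10. The deposited counts are unscaled and whole. Which tool counted them, with which annotation and whether by strand, is not given in the sources used here. The deposited table also holds the authors' normalized values, DESeq2 log2 fold changes and p-values, which were not used.

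Counts as deposited were fitted with edgeR 4.0.16 (R 4.3.3): filterByExpr (minimum count 10), TMM scaling and a robust quasi-likelihood F test of group with no covariate, over all 18453 genes left. CPM were computed on TMM-scaled library sizes. Genes with a Benjamini-Hochberg adjusted p below 0.05 were called, and SE is that of the log2 fold change. The 16 alternatives were DESeq2 size factors, scaling to ribosomal protein genes, no filter, the DESeq2 1.42.0 Wald test, limma-voom (limma 3.58.1), the 6 libraries with shared replicate numbers with and without a replicate block, and each of the 9 libraries left out. Fits were also run on simulated data in which far fewer genes changed than were called here, so that run does not bear on their errors in these data. A ratio of few counts has a 95% exact conditional binomial interval. Such intervals, and floors of 3 counts, cover only counting error. Deviations from group means used log2 CPM with a prior count of 2.

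The genes and all lists were chosen with earlier results of these data known. List entries were matched by symbol, 319 of 402 by the symbol in the file and 18 by a current symbol. Another 7 matched several rows and were left out, and 58 were not matched, among them the RIG-I gene and the receptor chain gene crfb5. Names were drawn by a rule: all 10 genes, up to 4 called genes with the smallest p and up to 2 uncalled genes with the highest mean CPM of each pathway list, up to 2 genes with the highest mean CPM of each cell type list, and the 5 genes most like the set by r. Other names were added after the values were seen (cmpk2, dhx36, the interferon genes, socs1a, stat1b, mxg, genes at 0 and genes given to show what a list's sum, count or r rests on).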

Additional observations from a re-analysis of the deposited data

Results flagged for a closer look

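In 12 of 164 sets of values (a gene in a group), the highest or lowest library lay far from the rest by Dixon's ratio, of which chance gives about 1 in 20. Among the 10 genes this was so for mxc only, at 78.4 CPM in BRAF(V600E) tumor 3 against 27.1 CPM in the next library. The receptor chain gene crfb6 had 51.1 CPM in BRAF(V600E) tumor 1 and 45 CPM in the next. The receptor gene tlr9 had 0.0812 CPM, or 1 count, in CCDC6-RET tumor 5 and 0 in the other 3. The adaptor gene ticam1 was low in BRAF(V600E) tumor 6, at 24.4 CPM against 29.2 CPM. CCDC6-RET tumor 6 was high for irf2 (45.8 against 32.6 CPM), jak1 (207 against 175 CPM) and HERC5 (6.66 against 3.72 CPM). The kinase gene jak2a had 302 CPM in BRAF(V600E) tumor 7 and 160 CPM in the next. The ligase-like gene herc7 had 10.7 CPM in CCDC6-RET tumor 2 and 1.81 CPM in the next. In BRAF(V600E) tumor 3 abcb3l1 had 40.2 CPM against 30.5 CPM, in BRAF(V600E) tumor 6 dnm2a had 65.7 CPM against 53.1 CPM, and in CCDC6-RET tumor 3 gata3 had 35.1 CPM against 8.47 CPM.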

How the results depend on the processing

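Over the 16 alternatives 6 to 9 of the tested genes of the set were called, all lower, and 10260 to 15186 genes of the whole table were called. Of 1296 values for 81 named genes, 1197 kept their direction and side of the threshold, 34 lost a call, 32 gained one and 33 changed sign. The sign changed under scaling to ribosomal protein genes for crfb4 (-0.24), crfb1 (-0.24), ticam1 (-0.08), tbk1 (-0.27), psme2 (-0.49) and junba (-0.34), and for the cell type markers arpc1b (-0.24), cyba (-0.17), nccrp1 (-0.39) and cdh5 (-0.63). With DESeq2 size factors or the DESeq2 test psme2 was at -0.07 and cdh5 at -0.05, and with limma-voom cdh5 was at -0.26. As each library was left out, log2 fold changes ran from -0.09 to 0.01 for jak1, from -0.09 to 0.21 for psme2, from -0.29 to 0.13 for tlr3, from -0.27 to 0.30 for cdh5 and from -0.07 to 0.08 for stat1a, and the log2 ratio difference of mxe to mxa from -0.48 to 0.04. The causes were not tested. With the replicate block, 10260 genes were called, against 11522 in the same 6 libraries unpaired, 8 of them in the set, and psme2 was at -0.27 (-0.22 unpaired). Same-numbered libraries correlated in their deviations by 0.04, 0.00 and -0.04, so the numbers were not taken as pairs.

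Depth limits mxb (15 and 42 counts) and the CCDC6-RET level of mxd (25 counts), and with 4 and 5 libraries an exact permutation test allows no p below 0.0159.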
